A study of Homo sapiens with 4 samples.

Results

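Respiratory complex I, or NADH:ubiquinone oxidoreductase, was described here through the genes of its nuclear-encoded subunits and of its NDUFAF assembly factors. The members were all probe sets with a single annotated symbol that starts with NDUFA, NDUFB, NDUFC, NDUFS, NDUFV or NDUFAF, leaving out pseudogenes, antisense and divergent transcripts. The rule found 78 probe sets for 41 genes, out of 41091 probe sets with 1 symbol for 19775 genes. Of these 41 genes, 5 were core subunits, 28 were accessory subunits and 8 were assembly factors. All 41 passed a filter on low mean signal, which 14349 genes of the series passed. The core subunit NDUFS8 and the accessory subunits NDUFS5 and NDUFC2 had no probe set of their own in the annotation and were not analysed here. NDUFA4 and NDUFA4L2, which current annotation calls COXFA4 and COXFA4L2 and which are no longer counted as complex I subunits, are stated on their own.

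Gene expression was measured on 4 Affymetrix arrays in HCT116, a cell line from a human colorectal carcinoma, in the versions HCT116 wt and HCT116 wt/GFP (how the latter was made is not labelled). Each version was grown attached to a flat surface, as a monolayer, and as spheroids, rounded aggregates of many cells, with age and manner of formation not labelled. Every combination had 1 array, so each condition had 2, 1 from each line, and precision is limited by that number. No treatment is named, and the study's question was how gene expression differs between the 2 ways of growing the cells.

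Complex I takes electrons from NADH in the mitochondrial matrix, passes them along iron-sulphur clusters to ubiquinone, and pumps protons across the inner membrane. The core subunits carry out the electron transfer and the pumping. The accessory subunits surround and stabilise them, and the assembly factors help to build the complex without staying in it. The core subunits of the membrane arm are encoded by mitochondrial DNA, while all other subunits are made in the cytosol and imported. In tumour cells the complex supplies NAD+ and ATP as long as oxygen is available.

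Genes of complex I were lower in spheroids. Of the 41 members, 25 fell and none rose at an adjusted p under 0.05 (limma, Benjamini-Hochberg over all 14349 genes), and 0 had a positive change at an unadjusted p under 0.05. The share of members that fell was 61%, whereas 18.5% of all genes tested fell, 30.6% rose and 49.1% were called in either direction. Members were bright, and among the 1185 genes at or above their median level 39.2% fell and 24.1% rose. Among the 5837 genes at or above the level of the dimmest member, 35.5% fell and 30.7% rose. The median log2 change of the members was -0.42, and that of all genes was 0.23, so the members lay 0.65 below the array-wide median.

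Both spheroid arrays lay below both monolayer arrays for 34 of the 41 members, which held for 26.5% of all genes. They lay above for 2 members, against 47.1% of all genes, and overlapped for 5. The log2 change was negative in both lines for 36 members, against 29.4% of all genes. By class, 2 of 5 core subunits, 16 of 28 accessory subunits and 7 of 8 assembly factors fell. These shares were 40%, 57.1% and 87.5%, beside 18.5% of all genes and 39.2% of genes at or above the members' median level. The share of the core subunits lay near the latter. The medians of the classes were -0.28, -0.40 and -0.77. A fall of at least 2-fold was reached by 4 members, NDUFAF8, NDUFA9, NDUFB2 and NDUFB3, and by 5.04% of all genes.

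**Figure D1:**
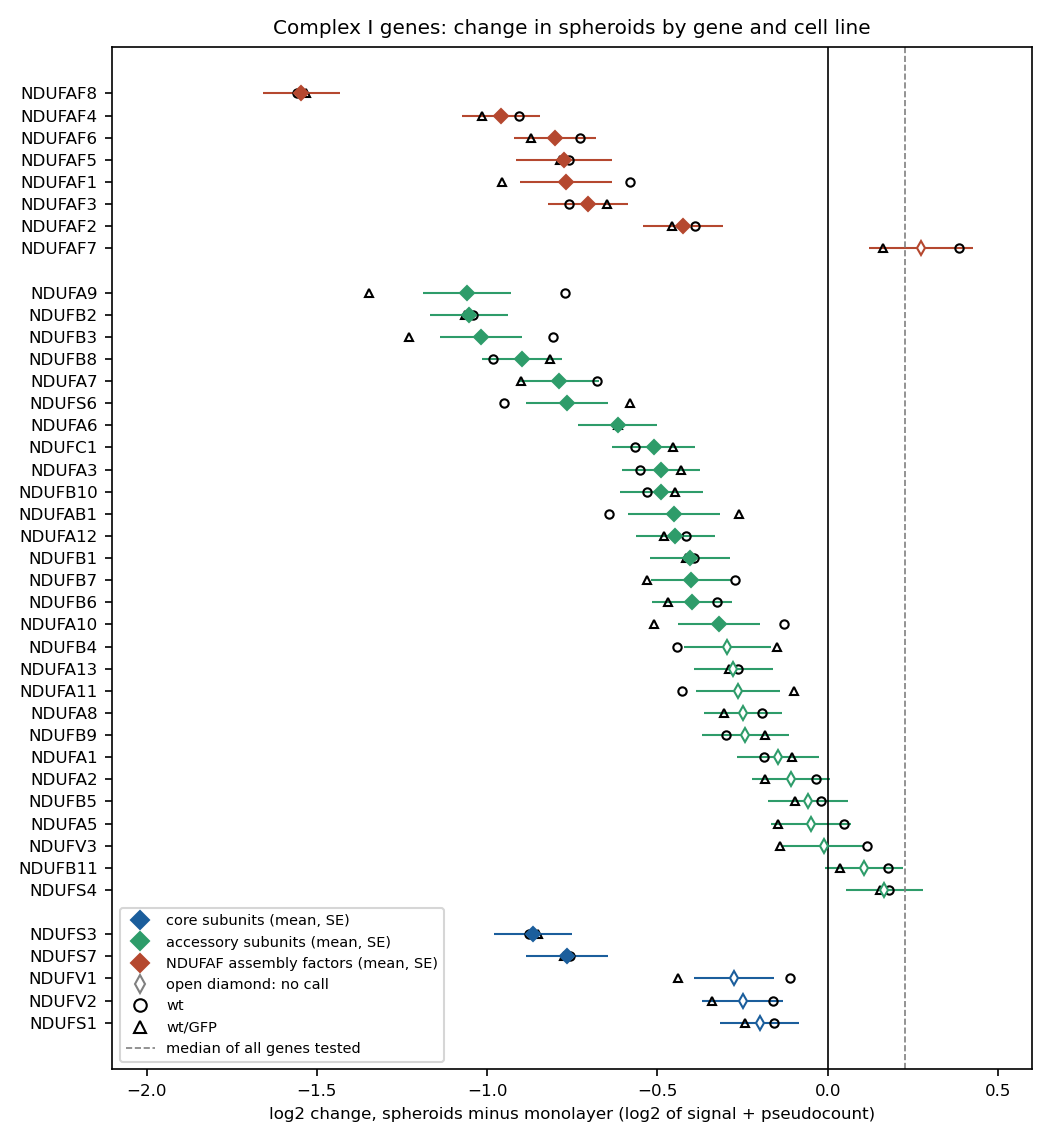
Log2 change of spheroids minus monolayer for each of the 41 complex I genes, by class. Diamonds are the mean of the 2 lines with the moderated SE, filled where the gene fell and open where it had no call; circles are the wt and triangles the wt/GFP change, and the dashed line is the median of all genes tested, 0.23. NDUFAF8 is lowest at -1.55, and NDUFB11, NDUFS4 and NDUFAF7 are the 3 genes with a positive mean.

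These calls rest on the deposited scaling of the arrays, under which the arrays share a trimmed mean. Of the 25 genes, 24 were also called lower after quantile normalization and after median centring, a call that 17.1% of all genes met. The exception was NDUFA10, which lost its call after quantile normalization. Median centring lowered all changes alike, the median of all genes going from 0.23 to -0.17. It could thus hardly remove a call of lower, and of the 2 only quantile normalization put these calls to a test. The split over all genes moved with the scaling, from 2657 lower and 4393 higher as deposited to 3010 and 3383 after quantile normalization, 4641 and 2350 after median centring, and 3740 and 982 with the hybridisation controls. The labels do not give the number of cultures that went into an array, so the p-values measure only how far the lines disagreed, moderated across genes, and that spread may be partly technical.

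Promoters of a few members are printed here because most of these genes moved together, and because NRF1, ETS-family GABP and YY1 are textbook regulators of respiratory chain genes. Each window runs from 250 bases before to 50 bases after a transcription start, 5′ to 3′ along the gene, from RefSeq on GRCh38.p14. Capitals mark matches, on either strand, to the letters CGCNTGCG for NRF1, CCGGAAG for ETS factors and AAGATGGCG for YY1. The NRF1 and YY1 letters are shorter forms, chosen after longer ones had been searched, which fewer windows hold. Of the windows shown, 4 were chosen because they hold a match, and that of NDUFB2 stands for genes without one, as does NDUFB3, not shown, whose window holds none either. The 3 motifs do not contain one another, and the NRF1 letters can match both strands at one place.
NDUFA9, chr12:4648864-4649163, plus strand, with an NRF1 and a YY1 match: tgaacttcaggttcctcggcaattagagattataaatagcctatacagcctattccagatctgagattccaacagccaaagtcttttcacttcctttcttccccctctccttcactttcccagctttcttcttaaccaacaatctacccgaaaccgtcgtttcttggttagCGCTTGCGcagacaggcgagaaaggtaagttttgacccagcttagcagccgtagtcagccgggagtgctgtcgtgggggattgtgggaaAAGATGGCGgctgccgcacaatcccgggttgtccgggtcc
NDUFAF8, chr17:81239061-81239360, plus strand, 1 of its 3 windows, of which another holds no match, with an ETS and a YY1 match: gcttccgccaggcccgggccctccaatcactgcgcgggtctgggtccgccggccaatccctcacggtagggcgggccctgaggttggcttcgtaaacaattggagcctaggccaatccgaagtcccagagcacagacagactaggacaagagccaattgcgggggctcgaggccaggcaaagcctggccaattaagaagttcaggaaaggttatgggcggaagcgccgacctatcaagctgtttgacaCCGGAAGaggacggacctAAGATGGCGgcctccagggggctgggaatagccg
NDUFB2, chr7:140696458-140696757, plus strand, a gene that fell, with no match: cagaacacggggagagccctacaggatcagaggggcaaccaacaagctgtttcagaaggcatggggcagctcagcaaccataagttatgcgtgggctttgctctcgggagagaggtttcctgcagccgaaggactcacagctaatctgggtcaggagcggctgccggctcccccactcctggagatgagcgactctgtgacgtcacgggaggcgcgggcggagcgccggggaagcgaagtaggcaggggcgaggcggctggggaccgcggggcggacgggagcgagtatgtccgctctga
NDUFS3, chr11:47578824-47579123, plus strand, with 2 ETS matches, 1 on each strand: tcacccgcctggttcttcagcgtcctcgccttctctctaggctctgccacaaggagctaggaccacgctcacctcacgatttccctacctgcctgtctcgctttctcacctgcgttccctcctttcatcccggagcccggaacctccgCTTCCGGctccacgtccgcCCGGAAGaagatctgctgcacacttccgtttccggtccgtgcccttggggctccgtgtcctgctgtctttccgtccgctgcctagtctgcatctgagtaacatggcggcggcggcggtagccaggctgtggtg
NDUFS4, chr5:53560389-53560688, plus strand, a gene with no call, with a YY1 match: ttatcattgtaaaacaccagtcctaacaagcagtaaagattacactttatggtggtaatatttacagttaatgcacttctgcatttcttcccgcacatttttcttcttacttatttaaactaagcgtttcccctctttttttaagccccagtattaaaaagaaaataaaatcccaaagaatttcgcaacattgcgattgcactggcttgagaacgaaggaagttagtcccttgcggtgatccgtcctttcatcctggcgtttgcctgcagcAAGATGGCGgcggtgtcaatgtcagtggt

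RefSeq windows were matched for 38 members, and not for NDUFAF6, NDUFB5 and NDUFB9. The NRF1 letters were in the windows of 13 of these 38 genes (34.2%) and in 12.0% of all 27305 genes with a window, which include noncoding genes. The ETS letters were in 7 (18.4%, against 12.2%) and the YY1 letters in 7 (18.4%, against 2.13%). Windows with the letters were found among genes that fell and among genes that did not. Of 24 members that fell, 9 had the NRF1 letters, 4 the ETS letters and 6 the YY1 letters. Of 14 members with no call, 4 had the NRF1 letters, 3 the ETS letters and 1 the YY1 letters. Binding to these windows was not measured, and the part of the letters in the falls was not tested.

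Among the 5 core subunits, NDUFS3 and NDUFS7 of the ubiquinone-reducing Q module fell, and the 3 subunits of the NADH-oxidising N module did not pass the test. NDUFS3, which joins one of the first assembly intermediates, had signals of 7792 in wt and 7635 in wt/GFP monolayers, and of 4233 and 4227 in the spheroids. The groups were apart, and spheroids held 54.3% and 55.4% of the monolayer signal. NDUFS3 fell by 0.86 ± 0.11 log2 units (SE, 2 arrays per condition, adjusted p = 3.56e-07). NDUFS7, which carries the last iron-sulphur cluster before ubiquinone, had signals of 2698 and 2584 in monolayers against 1590 and 1505 in spheroids. It fell by 0.77 ± 0.12 (adjusted p = 5.91e-06), and 58.9% and 58.2% of the signal was left.

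The N module core subunits had smaller differences, and in each of them the spheroid arrays still lay below the monolayer arrays. NDUFV1, which binds NADH and the flavin that accepts its electrons, had signals of 4742 and 4725 in monolayers. In spheroids it had 4387 in wt and 3483 in wt/GFP, with a log2 change of -0.28 ± 0.12 (adjusted p = 0.0557). The wt/GFP spheroid value was thus the one that stood lowest. NDUFV2, an iron-sulphur subunit, had signals of 10321, 10205, 9236 and 8061 in the same order of arrays, a change of -0.25 ± 0.12 (adjusted p = 0.0807). NDUFS1, the largest subunit and holder of several iron-sulphur clusters, had 3635, 3556, 3260 and 3002, a change of -0.20 ± 0.12 (adjusted p = 0.158). With the wt spheroid array left out, the log2 change of NDUFV1 was -0.44. All 5 core subunits were called lower when arrays were centred on their medians or scaled to the hybridisation controls. Of all genes, 32.3% and 26.1% were called lower under these scalings. After quantile normalization NDUFV1, NDUFV2 and NDUFS1 had no call, with values of -0.14, -0.08 and -0.10.

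Accessory subunits changed to unequal degrees, from a fall of 1.06 for NDUFA9 to a log2 change of 0.17 for NDUFS4. NDUFA9, a dehydrogenase-like subunit at the junction of the arms, had signals of 4114 and 4251 in wt and wt/GFP monolayers, and of 2403 and 1664 in the spheroids. It kept 58.4% of its signal in wt and 39.1% in wt/GFP, the widest gap between the lines among the members, with log2 changes of -0.77 and -1.35. Its mean fall was 1.06 ± 0.13 (adjusted p = 9.51e-08). NDUFB2, a small membrane subunit of the distal arm, had signals of 10808 and 10412 in monolayers and of 5241 and 4973 in spheroids. The lines agreed closely here, and NDUFB2 fell by 1.05 ± 0.11 (adjusted p = 1.42e-08), with its other bright probe set falling by 1.46 ± 0.12. NDUFB3, also of the distal arm, had 5559 and 5425 against 3171 and 2307, and fell by 1.02 ± 0.12 (adjusted p = 6.86e-08).

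Further falls of at least 0.6 log2 units were those of NDUFB8, NDUFA7, NDUFS6 and NDUFA6. NDUFB8, a distal subunit whose protein is widely used as a readout of assembled complex I, had signals of 12574 and 12022 in monolayers and of 6359 and 6826 in spheroids. Its fall was 0.90 ± 0.12 (adjusted p = 2.97e-07), and a second bright probe set fell by 0.88 ± 0.12. Another, dim probe set of the gene with monolayer signals of 148 and 187 rose by 0.66 ± 0.25, so the probe sets of NDUFB8 disagreed. NDUFA7, an N module subunit, had 3840 and 3707 against 2394 and 1979, and fell by 0.79 ± 0.12. A dim probe set of NDUFA7, at 153 and 227 in monolayers, had a change of 0.23 ± 0.27 and no call. With the mean of its probe sets NDUFA7 lost its call (limma, adjusted p = 0.214). NDUFS6, a zinc-binding subunit added late in assembly, had 11341 and 9558 against 5866 and 6384, and fell by 0.77 ± 0.12, more in wt (-0.95) than in wt/GFP (-0.58). NDUFA6, a LYR-motif protein that holds an acyl carrier, had 11478 and 11259 against 7476 and 7351, and fell by 0.62 ± 0.12 at the same rate in both lines. A second probe set of NDUFA6 fell by 0.76 ± 0.14.

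A further 9 accessory subunits fell by 0.32 to 0.51. NDUFC1, a small membrane subunit, fell by 0.51 ± 0.12, NDUFA3 by 0.49 ± 0.11 and NDUFB10 by 0.49 ± 0.12. NDUFAB1 is the acyl carrier protein of mitochondrial fatty acid synthesis and binds LYR proteins of the complex. Its signals were 32409 and 25990 in monolayers and 20761 and 21688 in spheroids, and it fell by 0.45 ± 0.13, to 64.1% in wt and 83.4% in wt/GFP. NDUFA12, an N module subunit, fell by 0.45 ± 0.12. NDUFB1 fell by 0.40 ± 0.12, NDUFB7 by 0.40 ± 0.12, NDUFB6 by 0.40 ± 0.12, and NDUFA10 by 0.32 ± 0.12. In all 9 genes both spheroid arrays lay below both monolayer arrays, with adjusted p-values from 0.000743 for NDUFA3 to 0.0288 for NDUFA10. Dim probe sets of NDUFC1, NDUFB7 and NDUFB1 had positive changes of 0.55, 0.20 and 0.13, with no call. A second probe set of NDUFB10 fell by 0.71, and dim ones of NDUFA10 that passed the filter had negative changes with no call. With the mean of their probe sets NDUFB1 and NDUFB7 lost their call, and NDUFC1 changed sign.

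Most of these smaller falls lost their call with single arrays left out. Those fits left a single array in a condition and did not pair arrays by line. A lost call alone thus does not show that a fall rested on that array. Without the wt/GFP spheroid array 8 accessory subunits fell in place of 16. With that array left out, NDUFC1, NDUFB10, NDUFAB1, NDUFA12, NDUFB1, NDUFB7, NDUFB6 and NDUFA10 had no call. Without the wt monolayer array the call was lost for NDUFAB1, NDUFA12, NDUFB1, NDUFB7 and NDUFB6. It was also lost without the wt/GFP monolayer array for NDUFB7 and NDUFA10, and without the wt spheroid array for NDUFAB1 and NDUFA10. Where calls were lost, the log2 changes stayed negative, from -0.48 (NDUFAB1 without the wt/GFP spheroids) to -0.19 (NDUFA10 without the wt/GFP monolayer). Of the 9 genes, NDUFA3 kept its call with each array left out.

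The other 12 accessory subunits did not pass the test. Those with the largest negative values were NDUFB4 (-0.29 ± 0.13, adjusted p = 0.0579), NDUFA13, also known as GRIM-19 (-0.28 ± 0.12, adjusted p = 0.0504), NDUFA11 (-0.26 ± 0.12), NDUFA8 (-0.25 ± 0.11) and NDUFB9 (-0.24 ± 0.13). All 5 had both spheroid arrays below both monolayer arrays. A second bright probe set of NDUFA11, with 8175 and 8034 against 6202 and 5867, fell by 0.43 ± 0.12. The bright probe sets of NDUFA11 thus gave different calls. A dim probe set of NDUFB4 rose by 1.41 ± 0.39. With 1 array left out NDUFB4 and NDUFB9 (without the wt/GFP monolayer) and NDUFA8 (without the wt spheroids) were called lower, with adjusted p-values of 0.0127, 0.0439 and 0.0466. The values of NDUFA1, NDUFA2, NDUFB5, NDUFA5 and NDUFV3 lay between -0.15 and -0.01. NDUFB11 had signals of 5855 and 5404 in monolayers and of 6615 and 5544 in spheroids, which overlapped, and a change of 0.11 ± 0.11. NDUFS4, an N module subunit whose loss causes Leigh syndrome, had 4780 and 4488 against 5415 and 4993, with spheroids above monolayers and a change of 0.17 ± 0.11 (adjusted p = 0.238). After quantile normalization NDUFS4 and NDUFB11 were called higher, and after median centring NDUFB11 was called lower, so neither has a direction that holds across scalings.

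**Figure D2:**
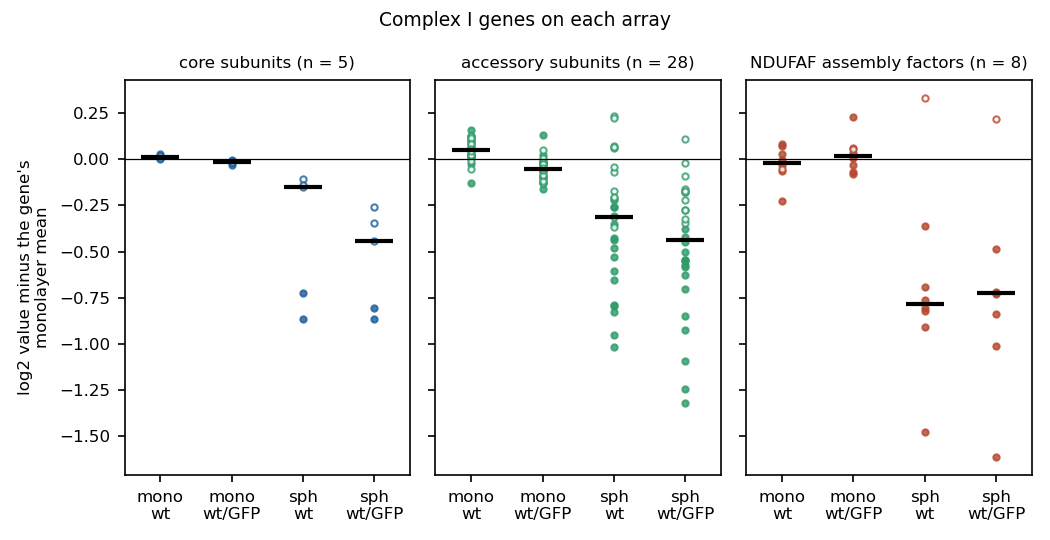
Log2 value of each complex I gene on each array minus that gene's mean over the 2 monolayer arrays, for core subunits, accessory subunits and assembly factors (mono, monolayer; sph, spheroids). Filled points are genes that fell, open points genes with no call, and bars the median of each array; 34 of 41 genes have both spheroid values below both monolayer values.

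Arranged by the module of the complex they were assigned to, 3 of 4 analysed Q module subunits fell (NDUFA9, NDUFS3 and NDUFS7, with NDUFA5 at -0.05), and their median was -0.82. In the N module 4 of 10 fell (NDUFA7, NDUFS6, NDUFA6 and NDUFA12), with a median of -0.26. In the proximal membrane arm 3 of 7 fell, with a median of -0.28, and in the distal membrane arm 8 of 12, with a median of -0.40. Differences between these parts were not tested, since each holds few genes. The shares of the N module and the proximal arm lie near the 39.2% of genes of like brightness that fell. Every module held genes with no call.

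Assembly factors had the lowest median of the classes. NDUFAF8, a small protein that stabilises NDUFAF5, had signals of 8670 and 7742 in monolayers and of 2933 and 2669 in spheroids. Spheroids kept 33.8% and 34.5% of the monolayer signal, the lowest shares among the members. NDUFAF8 fell by 1.55 ± 0.11 log2 units, or 2.92-fold (adjusted p = 9.81e-12). NDUFAF5, which modifies an arginine of NDUFS7, had 1212 and 1325 against 710 and 762, and fell by 0.77 ± 0.14 (adjusted p = 4.37e-05). A second probe set of NDUFAF5 fell by 0.78 ± 0.16. The partners NDUFAF5 and NDUFAF8 and their substrate NDUFS7 were thus all among the genes that fell.

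NDUFAF4 and NDUFAF3 bind the Q module early in its assembly, and both fell. NDUFAF4 had signals of 7569 and 7633 in monolayers and of 4035 and 3769 in spheroids, a fall of 0.96 ± 0.11 (adjusted p = 6.67e-08). A dimmer probe set of NDUFAF4, at 657 and 665 in monolayers and 634 and 684 in spheroids, did not differ detectably (adjusted p = 0.983), so the probe sets of this gene disagreed. NDUFAF3 had 3473 and 3152 against 2045 and 2006, a fall of 0.70 ± 0.12 (adjusted p = 1.37e-05). NDUFAF6, needed for an early step at the membrane arm, had 2947 and 3085 against 1774 and 1679, and fell by 0.80 ± 0.12 (adjusted p = 2.72e-06). NDUFAF1, of the complex that builds the membrane arm, had 1465 and 2016 against 975 and 1032, and fell by 0.77 ± 0.14 (adjusted p = 2.82e-05). Its monolayer arrays differed more between the lines than its spheroid arrays did.

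NDUFAF2, a relative of NDUFA12 that holds its place until the N module is complete, had signals of 3190 and 3061 in monolayers and of 2430 and 2227 in spheroids. It fell by 0.42 ± 0.12 (adjusted p = 0.00357). Its call was lost without the wt monolayer array (log2 change -0.39) and without the wt/GFP monolayer array (-0.45), in fits without pairing by line. NDUFAF7, a methyltransferase of the mitochondrial matrix, was the only assembly factor of the 8 with no call. It had 683 and 736 in monolayers and 896 and 826 in spheroids, so spheroids lay above, with a change of 0.27 ± 0.15 (adjusted p = 0.139). Another, dimmer probe set of NDUFAF7 rose by 0.93 ± 0.21, from 234 and 276 to 573 and 430.

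NDUFA4L2, which is known as a hypoxia-induced relative of the cytochrome oxidase subunit NDUFA4, was not measurable here. Its 1 probe set had signals of 36.7 and 7.3 in wt and wt/GFP monolayers and of 5.43 and 21.5 in the spheroids. The mean lay below the filter, so it was not tested. The log2 changes went opposite ways, -1.39 in wt and 0.74 in wt/GFP, and with no filter the adjusted p was 0.732. NDUFA4 had 10847 and 10361 in monolayers and 10377 and 9307 in spheroids, with overlapping groups and a change of -0.11 ± 0.12 (adjusted p = 0.469).

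Both lines showed the same direction in 39 of the 41 members. The exceptions were NDUFA5 and NDUFV3, which had no call, and opposite signs were met by 19.2% of all genes. The absolute difference between the lines had a median of 0.12 and reached 0.57 for NDUFA9. The change was more negative in wt/GFP for 27 members, and for 7326 of all 14349 genes. With 1 array for each line and condition, differences between the lines could not be tested.

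Probe sets of one gene did not always move together. Besides the brightest probe set, which stood for the gene, 27 others passed the filter in 19 of the 24 genes with several probe sets. Of these 27, 6 fell (in NDUFA6, NDUFA11, NDUFAF5, NDUFB2, NDUFB8 and NDUFB10), 3 rose (in NDUFAF7, NDUFB4 and NDUFB8) and 18 had no call. The 3 that rose were dim, with a highest signal of 573 on any array. Of the 17 other probe sets in genes that fell, 5 had a positive change, with or without a call. For NDUFB4 the bright probe set had signals of 22734, 19090, 16744 and 17225, and the dim one 39.5, 61.7, 190 and 127. Where in the transcript each probe set lies was not used here.

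**Figure D3:**
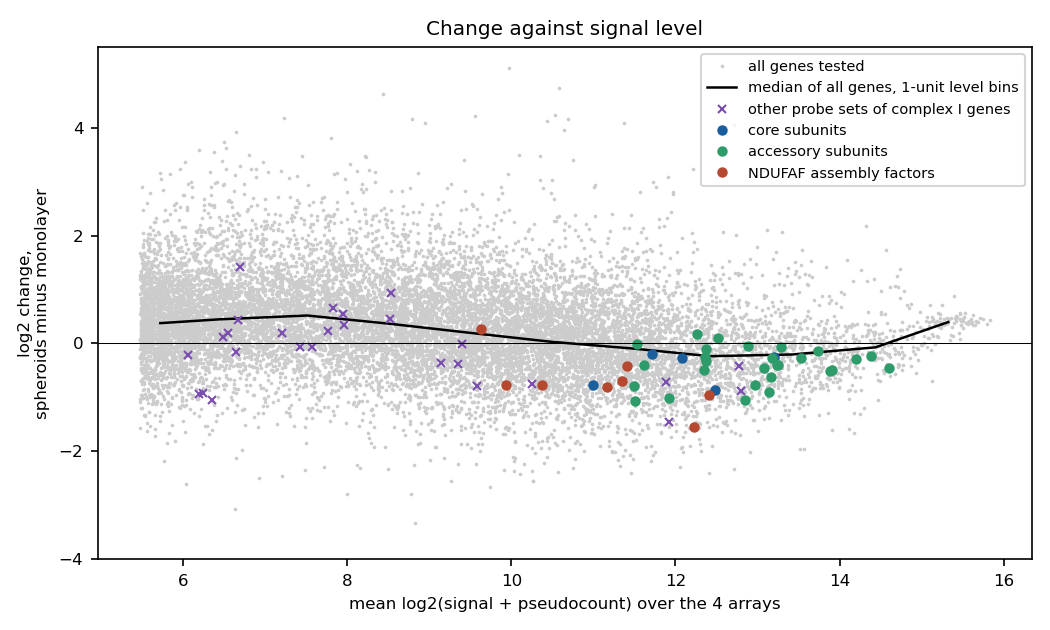
Log2 change of spheroids minus monolayer against the mean log2 level over the 4 arrays. Grey points are all 14349 genes, the line is their median in bins of 1 log2 unit, coloured points are the complex I genes by class and crosses their other probe sets; genes as bright as the median complex I gene have a median change of -0.13, and most complex I genes lie below the line.

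The level of signal matters for this comparison, since all genes together had a median change of 0.23, while genes at or above the median complex I level of 12.4 log2 units had -0.13. This was no steady fall with brightness, since genes at or above the dimmest member had a median of -0.04 and the 149 genes at or above the brightest member had 0.33. Measured against the median of all genes, the classes lay at -0.50 for core subunits, -0.63 for accessory subunits and -0.996 for assembly factors. After quantile normalization, which treats each level of signal apart, these values became -0.16, -0.28 and -0.81. The assembly factors thus kept most of their distance from other genes, and the subunits a smaller part of it.

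**Figure D4:**
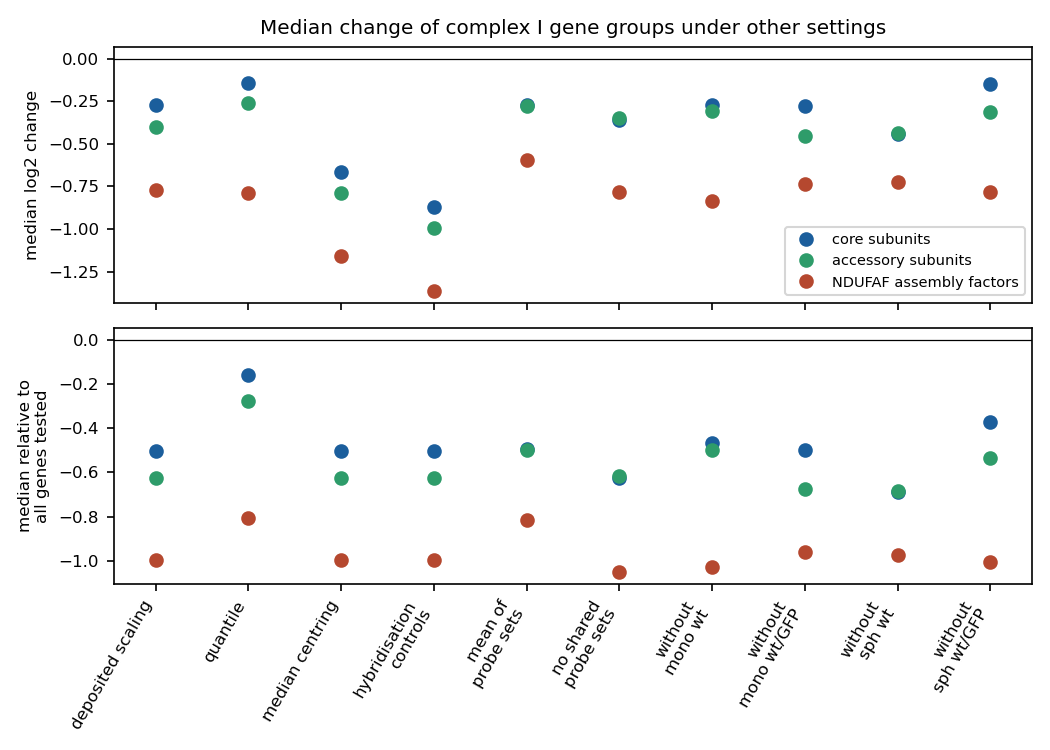
Median log2 change of the core subunits, accessory subunits and assembly factors under the deposited scaling and other settings (top), and the same minus the median of all genes tested (bottom). Every median is negative; the core subunits come closest to 0, at -0.16 relative to all genes after quantile normalization.

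Assembly factors outside the NDUFAF family were mostly lower as well. Of 14, 10 fell and the others had no call, with a median of -0.61. That is 71.4%, beside 18.5% of all genes and 35.5% of genes at or above the level of the dimmest complex I member. TMEM126A, a mitochondrial membrane protein that acts in building the membrane arm, fell by 1.57 ± 0.11, and its relative TMEM126B by 0.74 ± 0.12. FOXRED1 fell by 0.73 ± 0.14 and TMEM70, which also serves ATP synthase, by 0.71 ± 0.12. The 10 genes were also called lower after quantile normalization. They were so after median centring too, which lowered all changes alike and could hardly remove such a call.

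The mitochondrially encoded subunits behaved differently from one another. Only ND2, ND4 and ND6 had a probe set with 1 symbol. ND6, the 1 subunit gene on the other strand of mitochondrial DNA, had signals of 6638 and 7510 in monolayers and of 1381 and 1727 in spheroids. It fell by 2.18 ± 0.12 (adjusted p = 1.60e-14). ND4, a proton-pumping subunit, had 33726 and 30117 against 56673 and 60201, and rose by 0.87 ± 0.14 with the deposited scaling. A second bright probe set of ND4 rose by 0.86 ± 0.13. ND4 was also called higher after quantile normalization (0.54) and median centring (0.48). Its change was 0.28 with no call after scaling to the hybridisation controls, and the call was also lost without the wt spheroid (adjusted p = 0.0513) or wt/GFP spheroid array (0.0678). ND2, another pumping subunit, rose by 0.39 ± 0.15 (adjusted p = 0.0254), but had no call under any of the 3 other scalings, with a value of -0.20 after scaling to the hybridisation controls. It also lost the call without the wt/GFP monolayer (adjusted p = 0.0636), wt spheroid (0.171) or wt/GFP spheroid array (0.562).

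Among 12 regulators of respiratory chain genes, 11 were tested, of which 5 fell and 1 rose. The share that fell, 45.5%, stands beside 18.5% of all genes, and lies near the 35.5% to 39.2% of the brighter genes given above. TFAM, which packages and transcribes mitochondrial DNA, fell by 1.01 ± 0.12, from log2 values of 12.5 and 12.4 to 11.4 and 11.5. PPRC1, a coactivator related to PGC-1alpha, fell by 0.69 ± 0.13, and GABPB1, a subunit of the ETS factor GABP, by 0.63 ± 0.15. TFB2M, a mitochondrial transcription factor, fell by 0.58 ± 0.12. These 4 were called lower under the deposited, quantile and median scalings, of which the median scaling lowered all changes alike. Of the factors whose letters were searched in the promoters, NRF1 fell by 0.50 ± 0.16 (adjusted p = 0.0109). GABPA, the DNA-binding subunit of GABP, had a log2 change of 0.16 ± 0.13 (adjusted p = 0.298) and YY1 of 0.05 ± 0.12 (adjusted p = 0.763), neither with a call. The gene that rose, TFB1M (0.31 ± 0.12), had no call after median centring; TFB1M, NRF1, GABPA and YY1 lie outside the 4 largest changes and were named after their values were seen.

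Of 8 genes known to adjust respiration in low oxygen, 7 were tested, of which 4 rose and 1 fell. Of all genes, 30.6% rose and 18.5% fell. EGLN3, an oxygen-sensing hydroxylase, rose by 3.21 ± 0.24, PDK1, which restrains pyruvate entry into the citric acid cycle, by 2.55 ± 0.16, MXI1, an antagonist of MYC, by 1.95 ± 0.12, and BNIP3, a mitophagy receptor, by 1.46 ± 0.11. These 4 were called higher under all 4 scalings. The gene that fell, LONP1 (0.63 ± 0.13), was called lower under all 4. HIGD1A (-0.24 ± 0.13) and COX4I2 (0.25 ± 0.45) had no call, and COX4I2 went opposite ways in the lines. LONP1, HIGD1A and COX4I2 lie outside the 4 largest changes and were named after their values were seen. The part of low oxygen in the complex I values was not tested.

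With the deposited scaling, the other respiratory complexes had smaller shares of genes that fell than complex I subunits. Of those subunits 18 of 33 fell (54.5%), beside 18.5% of all genes. The 61% of all members includes assembly factors, which the lists of the other complexes lack. The nearest share was that of complex III, 42.9%. In complex II 3 genes were tested and had no call. In complex III 3 of 7 fell, in complex IV 1 of 10 and in ATP synthase 3 of 14, and none of these lists had a gene called higher by limma with the deposited scaling. At an unadjusted p under 0.05, 1 gene of complex IV was higher. These counts moved with the scaling. After median centring, 2 of 3 genes of complex II, 4 of 7 of complex III, 8 of 10 of complex IV and 13 of 14 of ATP synthase were called lower, beside 32.3% of all genes and 27 of 28 accessory subunits of complex I. After quantile normalization, 0, 3, 1 and 6 genes of these lists were called lower, and SDHC, UQCR11, UQCRC1 and UQCRC2 were called higher (named after their values were seen). Of these 34 genes, ATP5MC1, a c subunit of the ATP synthase rotor, had the largest change and fell by 1.30 ± 0.12. The medians were -0.02, 0.09, 0.05 and -0.18, beside -0.40 for complex I subunits. Whether complex I differs from them was not tested.

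**Figure D5:**
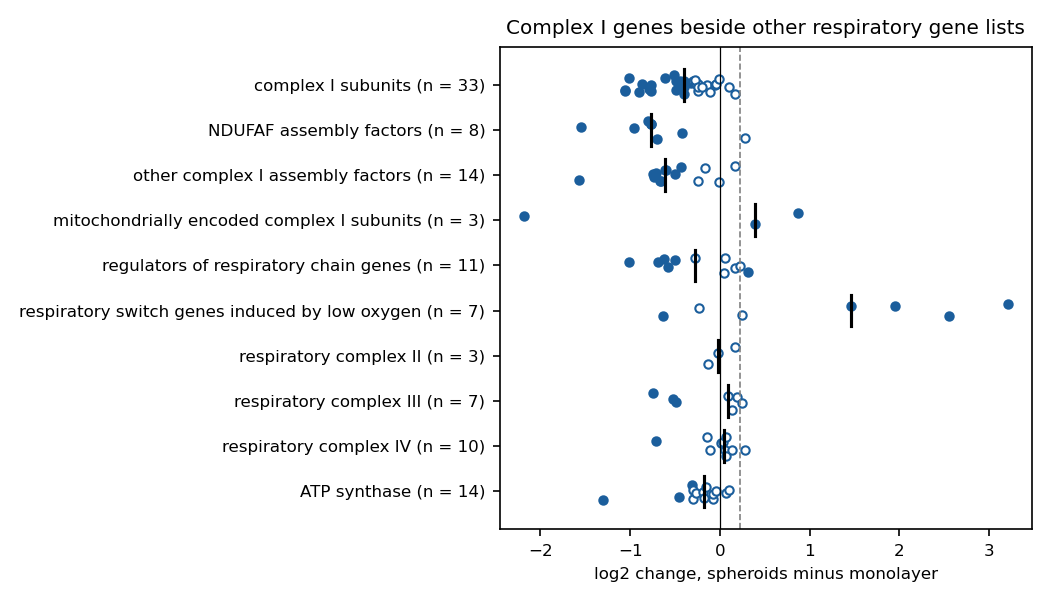
Log2 change of spheroids minus monolayer for complex I subunits, NDUFAF assembly factors and other respiratory gene lists, 1 point per gene, filled where the gene was called in either direction; the bar is the median of each list and the dashed line that of all genes, 0.23. Medians run from -0.77 for NDUFAF assembly factors to 1.46 for the respiratory switch genes induced by low oxygen.

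The arrays differed between conditions in ways that bear on all these values. The trimmed mean was 500.1 on each array, but the median signal was lower in monolayers (47.9 and 48.6) than in spheroids (67.0 and 68.2). The ratio of 3' to 5' probe sets of ACTB was 1.30 to 1.32 in monolayers and 1.73 to 1.76 in spheroids, and that of GAPDH 0.868 to 0.951 on all arrays. Hybridisation controls were brighter on the spheroid arrays. The part of RNA quality and scaling in the falls was not tested, except for the scalings named above. Of 6 epithelial markers, EPCAM, KRT8, KRT18 and KRT19 were bright on all arrays, from 16249 to 32967, while CEACAM5 lay between 17.5 and 204. CDH1, the adhesion protein E-cadherin, had signals of 916 and 889 in monolayers and of 4493 and 4866 in spheroids, so both spheroid arrays lay above both monolayer arrays; its part in the complex I values was not tested. Of 10 markers of blood, vessel, stroma and liver cells, 9 were measured, and their summed signal was higher in spheroids (2871 and 4572) than in monolayers (801 and 881), most of it there from COL1A1. PTPRC, COL1A2, VWF and ALB did not pass the filter. Lower RNA per cell and fewer cells that express a gene cannot be told apart in these pooled samples.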

How the data were processed

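Biotin-labelled RNA was hybridised to 4 arrays. The authors deposited 1 column of intensities per array on a linear scale, MAS5 signals per the submitters' processing notes; its version is not given in the sources used here, nor are its settings. Probe sets were named from the platform annotation, with symbols updated through gene identifiers in RefSeq's table of GRCh38.p14 (41091 with 1 symbol, 1801 with several, 11721 with none).

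Values were transformed as log2(signal + 14.0), the pseudocount being the 25th percentile, which shrinks the fold changes of dim genes. Probe sets above the 40th percentile of the mean (5.48) were kept, and the brightest stood for each gene. The fit was limma 3.58.1 in R 4.3.3 with condition and cell line as terms and trended moderation (1 residual and 25.9 prior degrees of freedom), so every SE rests mainly on genes of like brightness. Adjusted p-values are two-sided Benjamini-Hochberg values over 14349 genes, called under 0.05. Arrays are paired by the cell line that the labels give; line differences in monolayers and spheroids correlated at 0.00684 across genes. The procedure was tested on simulated data.

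Members, lists and alternatives were chosen with earlier results of these data known. Every member could be named, and of each other list up to 4 tested genes with the largest change. Alternatives were other scalings (quantile, median, 18 hybridisation controls), pseudocounts, filters, probe set rules, moderations, no cell line block, and leaving out each array. Fits with an array left out also had no cell line block.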

Additional observations from a re-analysis of the deposited data

Results flagged for a closer look

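The lines moved opposite ways in 3 of the genes described, and these differences were not tested, since each line and condition had 1 array. NDUFA5 had a log2 change of 0.048 in wt and -0.14 in wt/GFP, and NDUFV3 of 0.12 and -0.14, both about the size of the SE. NDUFA4L2 had -1.39 in wt and 0.74 in wt/GFP, from signals below the filter.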

How the results depend on the processing

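NDUFA9, NDUFAF4, NDUFAF5, NDUFAF6, NDUFAF8, NDUFB2, NDUFB3, NDUFB8 and NDUFS3, 9 of the 25 genes that fell, kept the call under every alternative that could test them. Core subunits that fell numbered 5 after median centring and 5 with arrays scaled to the hybridisation controls, and 1 without shared probe sets; leaving out each array gave 2 to 3. Accessory subunits that fell numbered 27 after median centring, 10 of 20 tested without shared probe sets and 5 with moderation without trend; leaving out each array gave 8 to 16. Accessory subunits that rose numbered 2 after quantile normalization, 1 with the mean of probe sets and 1 without shared probe sets. Assembly factors that fell numbered 4 of 4 tested without shared probe sets and 4 with moderation without trend, and 1 rose with the mean of probe sets; leaving out each array gave 6 to 7. With the mean of probe sets the sign turned for NDUFC1 (0.021) and NDUFB4 (0.56), and without shared probe sets for NDUFB1 (0.13), NDUFB7 (0.20) and NDUFB4 (1.41), settings that bring in dimmer probe sets. NDUFB11 was called lower after median centring (-0.28). Of all genes, 32.3% were called lower after median centring and 26.1% with the hybridisation controls. Without the replicate block that pairs arrays by line, 2 core subunits, 15 accessory subunits and 7 assembly factors fell, and NDUFA10 alone lost its call (adjusted p = 0.0566). Of the 25 genes, 11 kept the call with moderation without trend, where 1174 of all genes fell and 2646 rose; without shared probe sets 1700 of all genes fell. NDUFA4L2 ranged from -0.95 to 0.30 with single arrays left out. Beyond what the settings themselves change, the cause was not tested. For dim probe sets the signal over background limits what can be seen.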
